A study of Homo sapiens with 12 samples.

Results

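The zinc finger genes described here are the protein-coding genes that the deposited table places on human chromosome 19 and that carry a ZNF symbol followed by digits only. The rule found 240 such genes among 59172 features, beside 235 ZNF genes of the same kind on other chromosomes. They were measured by RNA sequencing of HCT-116 cells, an established human colorectal carcinoma line, in 4 groups of 3 libraries. In the SHP2-silenced group the phosphatase SHP2 was lowered with a short hairpin RNA and the cells received CPT-11 for 24 h; CPT-11 is the prodrug irinotecan, which is turned into a poison of topoisomerase I. In the lovastatin group unsilenced cells were pretreated for 4 h with lovastatin, a blocker of HMG-CoA reductase, and then given CPT-11 for 24 h. The CPT-11 group received CPT-11 alone for 24 h, and the untreated group no drug. The treatment label of the silenced samples also names lovastatin; neither the titles nor the described treatment do, and the grouping follows the titles. Silenced cells without CPT-11, a control hairpin with CPT-11 and lovastatin alone were not analysed here, and the labels do not say whether the silenced cells were 1 clone. Whether a group's 3 libraries are separate cultures is not in the labels, and p-values therefore cover the spread between these samples alone, which may be technical.

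Zinc finger proteins of the C2H2 type hold a zinc ion in each finger through a pair of cysteines and a pair of histidines, and an array of fingers reads a stretch of DNA. Most of those encoded on chromosome 19 belong to the KRAB family, whose genes lie in tandem arrays and whose KRAB domain recruits the co-repressor TRIM28 (KAP1). TRIM28 in turn brings the histone methyltransferase SETDB1 and the HP1 proteins, and the pathway is known for silencing transposable elements. After DNA breaks the kinase ATM phosphorylates TRIM28, which relaxes compacted chromatin.

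The promoters of 4 genes are shown first because ZNF440 and ZNF561 were higher in every treated group and the neighbours ZNF580 and ZNF581, on the same strand, differed in direction. ZNF600 and ZNF211 were also higher in every treated group, but no RefSeq promoter was available for them. The windows lie around the start that RefSeq (GRCh38.p14) gives each gene, 5′ to 3′ on the gene's strand, and capitals mark CCGGAAG (an ETS type motif) or CCAAT (the CCAAT box) on either strand. For ZNF580 and ZNF581 that start lies inside the gene as the deposited table places it, and the ZNF581 window overlaps the end of ZNF580.
ZNF440, chr19:11814023-11814322, plus strand: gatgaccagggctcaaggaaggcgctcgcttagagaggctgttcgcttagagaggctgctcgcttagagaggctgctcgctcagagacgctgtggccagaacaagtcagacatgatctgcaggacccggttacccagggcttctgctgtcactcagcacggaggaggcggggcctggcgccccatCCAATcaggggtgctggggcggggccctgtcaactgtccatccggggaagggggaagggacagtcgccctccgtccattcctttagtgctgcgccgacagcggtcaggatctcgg
ZNF561, chr19:9621183-9621482, minus strand: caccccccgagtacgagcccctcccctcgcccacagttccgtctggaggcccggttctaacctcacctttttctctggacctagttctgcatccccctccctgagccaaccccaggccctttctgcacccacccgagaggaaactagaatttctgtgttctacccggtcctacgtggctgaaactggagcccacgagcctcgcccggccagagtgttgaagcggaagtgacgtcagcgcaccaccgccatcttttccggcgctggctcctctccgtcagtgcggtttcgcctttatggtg
ZNF580, chr19:55640752-55641051, plus strand: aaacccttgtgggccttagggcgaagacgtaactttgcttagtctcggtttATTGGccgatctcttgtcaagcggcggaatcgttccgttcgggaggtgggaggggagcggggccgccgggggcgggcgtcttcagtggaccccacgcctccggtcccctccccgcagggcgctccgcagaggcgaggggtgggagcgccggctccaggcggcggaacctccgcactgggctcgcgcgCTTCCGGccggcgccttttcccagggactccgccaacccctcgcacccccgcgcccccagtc
ZNF581, chr19:55643399-55643698, plus strand: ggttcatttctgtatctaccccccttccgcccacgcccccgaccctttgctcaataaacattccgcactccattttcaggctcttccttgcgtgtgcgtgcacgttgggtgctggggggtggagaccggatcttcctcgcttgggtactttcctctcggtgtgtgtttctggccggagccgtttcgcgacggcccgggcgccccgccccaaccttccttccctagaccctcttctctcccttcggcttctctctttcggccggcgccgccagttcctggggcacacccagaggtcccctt
ZNF440 holds 1 CCAAT and ZNF580 holds 1 CCGGAAG and 1 CCAAT, while the windows of ZNF561 and ZNF581 hold none of the 5 motifs searched, which were also GCGCATGCG (the NRF1 type motif), the ZNF143 motif and the palindromic motif of ZBTB33, in 1 fixed spelling each. The RefSeq table had a promoter for 209 of the 240 genes. CCGGAAG was in 44.5% of these, against 36.9% of 195 ZNF genes on other chromosomes and 14.2% of 15843 protein-coding promoters. In the same order, CCAAT was in 52.6%, 44.1% and 36.4%, GCGCATGCG in 2.87%, 5.13% and 2.76%, the ZNF143 motif in 0.957%, 1.54% and 0.372% and the ZBTB33 motif in 0.957%, 0% and 0.669%. None of the 5 motifs is contained in another. A match describes letters and not a bound site, and no match says only that these letters are not in the window.

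A library held 14447847 to 16224271 reads assigned to genes, and the 240 genes took 0.225% to 0.254% of them. Values are FPKM, reads per gene corrected for gene length and library size. PTPN11, which encodes SHP2, measured 6.01, 6.54 and 7.15 FPKM in silenced libraries, against 48.2, 50.5 and 43.9 FPKM in CPT-11 libraries. Of 7 epithelial markers, EPCAM, KRT8, KRT18, KRT19, CDH1 and CDX2 were present in every library and VIL1 lay at 0 to 0.144 FPKM. Of 7 markers of other cell types, COL1A1 reached 3.15 to 5.89 FPKM and the others stayed at or under 0.203 FPKM. CPT-11 replicate 3 stood apart from CPT-11 replicates 1 and 2 in how values changed with GC content, and values without it are also given below.

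The zinc finger genes were expressed at low levels, and their GC content was low at the median but varied widely. The median level over 12 libraries was 0.955 FPKM, with 5 genes over 10 FPKM, 113 between 1 and 10 FPKM and 122 under 1 FPKM. To be tested a gene needed 10 or more reads in 3 or more libraries and 15 or more in total, which 156 of the 240 genes had, and 23 of the other 84 had no read in any library. The exons of the 240 genes had a median GC content of 43.3% (44.1% for the 156 tested) and ranged from 33.9% to 71.1%. The median was 46.7% for tested ZNF genes of other chromosomes, 59.9% for the other tested protein-coding genes of chromosome 19 and 49.0% for all tested protein-coding genes. The median zinc finger gene encoded 12 fingers, with a range of 0 to 36, counted in the coding sequences of GENCODE 29, whose coordinates the table carries. The gene with 36 was ZNF208, named after its values were seen. A stretch of the KRAB box was found in 201 of the 240 genes, by a pattern that was settled after it was seen which genes matched and that misses divergent boxes, so the split is a description only. Exon bases were shared with another annotated gene in 132 of the 240, and 9 of these shared most of them, so that part of their reads cannot be assigned with certainty.

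Levels differed along the chromosome. When genes less than 1 Mb apart were joined, the 240 genes fell into 16 position groups. The 57 genes at the end of the long arm (GRCh38, chromosome 19, 55476332 to 58481230) had 44 genes with enough reads to test, a median level of 1.91 FPKM and a median GC content of 47.4%. The 37 genes beside the centromere on the short arm (19668796 to 24129961) had 15 tested genes, a median of 0.00248 FPKM and a median GC content of 38.6%. The 15 genes at 7069444 to 9793180 had a median of 3.31 FPKM, and 13 of them were tested. All 39 genes at 51571298 to 53580269 carried the KRAB stretch, and 26 of them were tested.

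**Figure D1:**
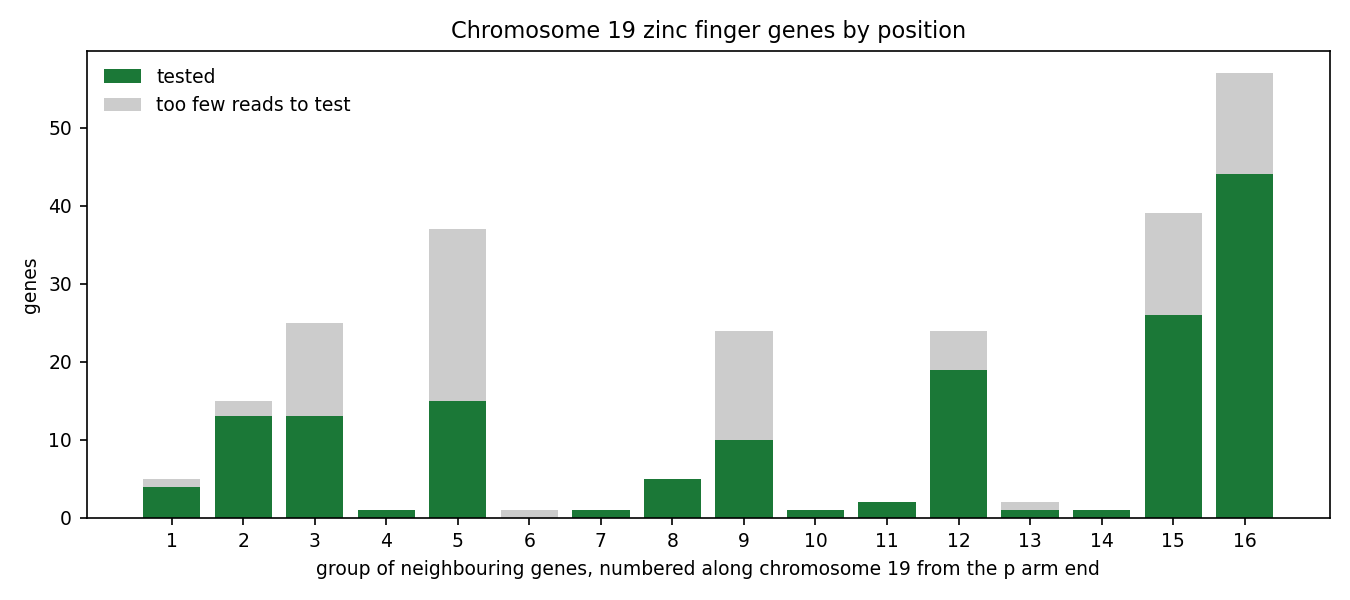
Number of chromosome 19 zinc finger genes (vertical axis) in each of 16 position groups, numbered along the chromosome from the end of the short arm (horizontal axis). Green bars count genes with enough reads to test and grey bars the others. Group 16 holds 57 genes of which 44 were tested, and group 5 holds 37 of which 15 were tested.

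Of the 5 most abundant genes, only ZNF146 and ZNF581 passed the test in a comparison with all libraries and no correction for GC content. ZNF146 (36214602 to 36238774), also called OZF, encodes 10 fingers and no KRAB stretch. It measured 29.2, 31.4 and 32.1 FPKM in silenced libraries, 34.0, 33.8 and 35.0 FPKM with lovastatin and CPT-11, 39.4, 40.6 and 32.0 FPKM with CPT-11 and 40.7, 43.1 and 45.7 FPKM in untreated libraries. No treated library reached the lowest untreated one. In RNA from a whole culture, fewer cells with a transcript and less of it per cell cannot be told apart. The test was limma on log2(FPKM + 1), with p-values adjusted over all 18047 genes tested and a threshold of 0.05, and differences are on that log2 scale with their SE. ZNF146 fell by 0.47 ± 0.08 (limma adjusted p = 0.00117) in silenced against untreated cells and by 0.32 ± 0.08 (limma adjusted p = 0.0125) with lovastatin. With CPT-11 alone its difference was -0.21 ± 0.08 (limma adjusted p = 0.109), and without CPT-11 replicate 3, which stood below the other CPT-11 libraries, it was -0.11 (limma adjusted p = 0.196). With that library left out and a correction for GC content, described below, it was -0.17 (limma adjusted p = 0.00818) and passed.

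ZNF121 (9560353 to 9584533), with 9 fingers, had 20.5, 21.3 and 20.8 FPKM in silenced libraries, 18.8, 18.7 and 20.5 FPKM with lovastatin, 23.2, 20.4 and 18.1 FPKM with CPT-11 and 17.9, 20.1 and 21.3 FPKM in untreated libraries, and each treated group overlapped the untreated one. ZNF317, a KRAB gene with 13 fingers, had 9.89, 10.7 and 11.5 FPKM in silenced libraries, 11.1, 11.9 and 11.2 FPKM with lovastatin, 11.9, 12.2 and 10.8 FPKM with CPT-11 and 10.8, 11.2 and 12.6 FPKM in untreated libraries, again with overlap. The means of ZNF317, ZNF581 and ZNF428 over the 12 libraries, 11.3, 10.9 and 10.4 FPKM, differ by less than their spread over libraries. ZNF428 (27.6% of whose exon bases overlap SRRM5 on the opposite strand) had 10.8, 11.3 and 11.9 FPKM in silenced libraries, 13.9, 12.9 and 11.6 FPKM with lovastatin, 5.89, 4.68 and 14.8 FPKM with CPT-11 and 9.62, 8.96 and 8.15 FPKM in untreated libraries. Its highest value was CPT-11 replicate 3 and its lowest values were CPT-11 replicates 1 and 2. With all libraries the CPT-11 difference of ZNF428 from untreated cells was -0.21 ± 0.28 (limma adjusted p = 0.664), and without CPT-11 replicate 3 it was -0.66 (limma adjusted p = 0.000935).

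ZNF600, ZNF440, ZNF561 and ZNF211, all KRAB genes, rose in every treated group against untreated cells. The comparisons with untreated cells share the 3 untreated libraries, so their values stand side by side and are not independent. ZNF600 (52749942 to 52786807), with 18 fingers, had 4.10, 4.56 and 4.53 FPKM in silenced libraries, 4.44, 4.55 and 4.02 FPKM with lovastatin and 5.11, 5.38 and 4.13 FPKM with CPT-11, against 2.11, 2.49 and 2.41 FPKM in untreated libraries. All 9 treated values lay above the 3 untreated ones. ZNF600 rose by 0.69 ± 0.09 (limma adjusted p = 0.000225) in silenced cells, 0.68 ± 0.09 (limma adjusted p = 0.00034) with lovastatin and 0.81 ± 0.09 (limma adjusted p = 0.000176) with CPT-11.

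ZNF440 (11814284 to 11835201), with 10 fingers, had 5.38, 6.21 and 6.91 FPKM in silenced libraries, 5.79, 6.29 and 6.13 FPKM with lovastatin and 6.19, 6.90 and 5.95 FPKM with CPT-11, against 3.69, 3.07 and 3.65 FPKM in untreated libraries, with no overlap. It rose by 0.68 ± 0.09 (limma adjusted p = 0.000249) in silenced cells, 0.66 ± 0.09 (limma adjusted p = 0.000373) with lovastatin and 0.72 ± 0.09 (limma adjusted p = 0.000384) with CPT-11. Its promoter, above, holds a CCAAT box. ZNF561 (9604680 to 9621399), with 8 fingers, had 8.66, 8.49 and 9.05 FPKM in silenced libraries, 9.11, 9.06 and 9.16 FPKM with lovastatin and 9.92, 9.78 and 8.83 FPKM with CPT-11, against 6.16, 6.11 and 6.25 FPKM in untreated libraries. The untreated values of ZNF561 lay close together and below all treated ones. It rose by 0.44 ± 0.06 (limma adjusted p = 0.000165) in silenced cells, 0.50 ± 0.06 (limma adjusted p = 9.34e-05) with lovastatin and 0.55 ± 0.06 (limma adjusted p = 8.02e-05) with CPT-11.

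ZNF211 (57630395 to 57642779), with 11 fingers, had 4.87, 4.49 and 4.87 FPKM in silenced libraries, 5.51, 4.2 and 4.88 FPKM with lovastatin and 5.42, 5.39 and 4.10 FPKM with CPT-11, against 3.16, 2.96 and 3.14 FPKM in untreated libraries, with no overlap. It rose by 0.49 ± 0.10 (limma adjusted p = 0.00388) in silenced cells, 0.51 ± 0.10 (limma adjusted p = 0.00407) with lovastatin and 0.54 ± 0.10 (limma adjusted p = 0.00521) with CPT-11.

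ZNF580 (55635016 to 55643469), with 3 fingers and no KRAB stretch, had the largest fall of the genes that passed in each comparison with untreated cells. It had 5.39, 5.22 and 4.99 FPKM in silenced libraries, 5.73, 5.59 and 6.0 FPKM with lovastatin and 4.08, 4.30 and 6.08 FPKM with CPT-11, against 8.88, 8.74 and 7.85 FPKM in untreated libraries. No treated library reached the lowest untreated one, and CPT-11 replicate 3 was the highest treated value. ZNF580 fell by 0.61 ± 0.11 (limma adjusted p = 0.00139) in silenced cells, by 0.49 ± 0.11 (limma adjusted p = 0.00717) with lovastatin and by 0.72 ± 0.11 (limma adjusted p = 0.00119) with CPT-11. Its neighbour ZNF581 (55635459 to 55645622), with 4 fingers and no KRAB stretch, was higher instead. ZNF581 had 13.3, 13.2 and 14.0 FPKM in silenced libraries, 13, 13 and 10.8 FPKM with lovastatin and 8.5, 8.17 and 11.4 FPKM with CPT-11, against 9.47, 8.58 and 6.83 FPKM in untreated libraries. It rose by 0.66 ± 0.13 (limma adjusted p = 0.00245) in silenced cells and by 0.52 ± 0.13 (limma adjusted p = 0.0115) with lovastatin. With CPT-11 its libraries overlapped the untreated ones, and its difference was 0.15 ± 0.13 (limma adjusted p = 0.479). Without CPT-11 replicate 3, the highest of the CPT-11 libraries, it was 0.02 (limma adjusted p = 0.935). ZNF580 shares 15.1% and ZNF581 23.4% of its exon bases with the other or with CCDC106, so part of their reads cannot be assigned to 1 gene with certainty.

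**Figure D2:**
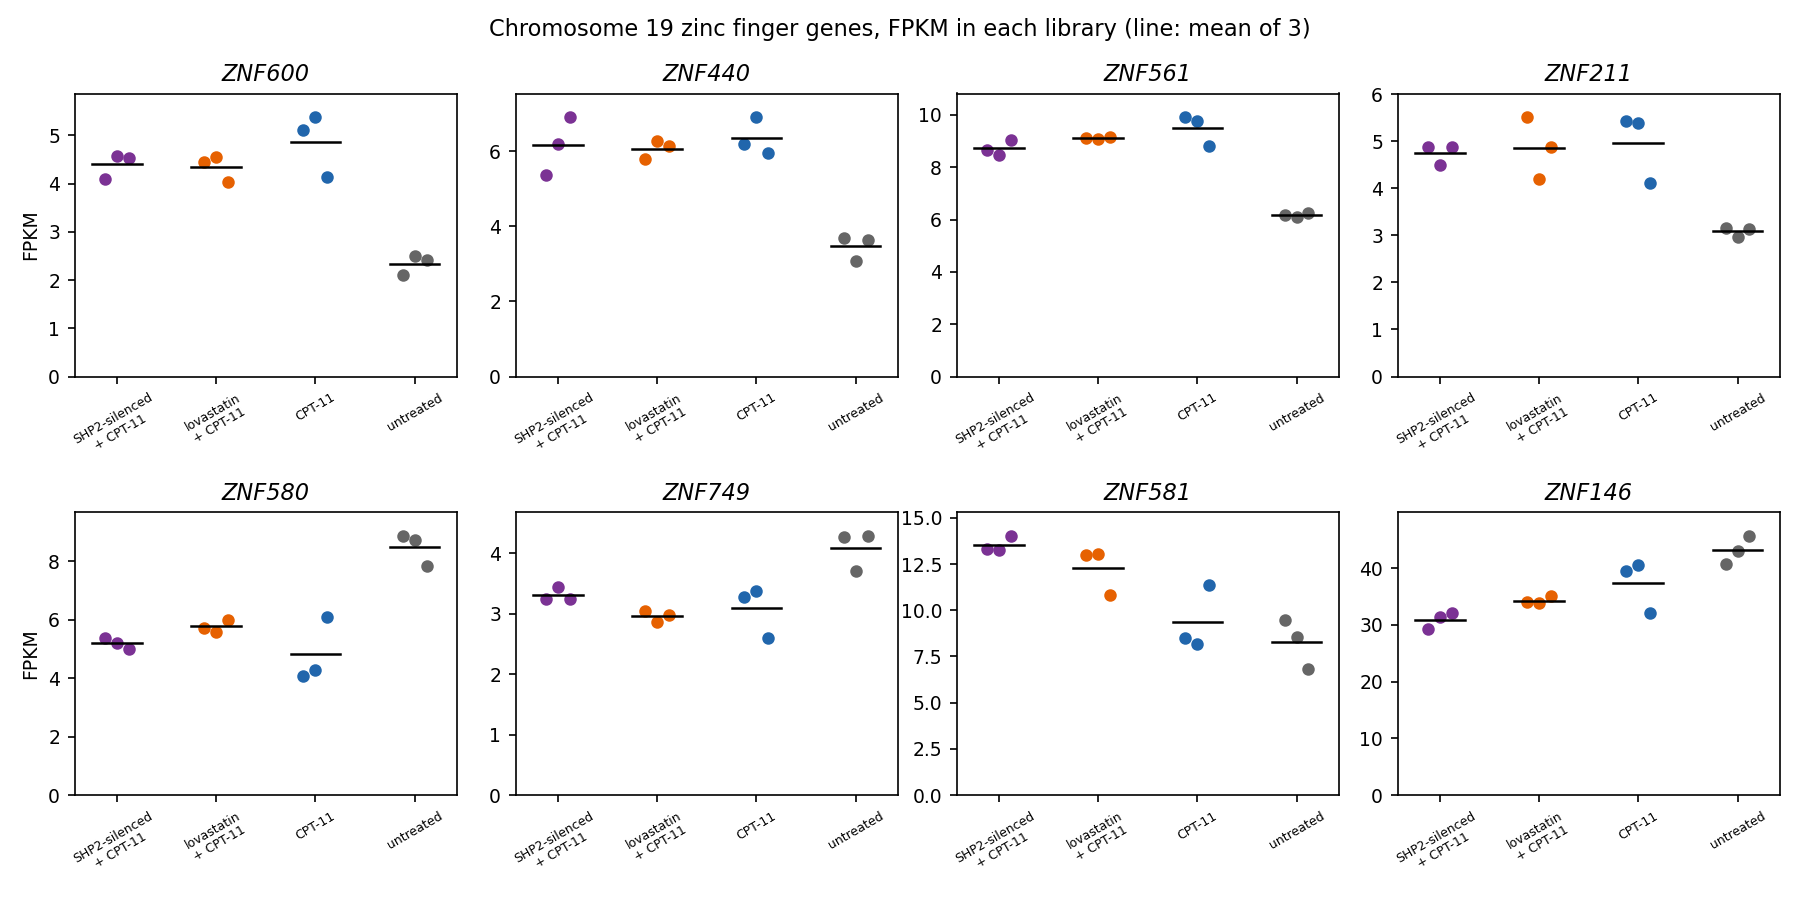
FPKM (vertical axis, from 0) of 8 chromosome 19 zinc finger genes in each library, by group (horizontal axis). Points are libraries and lines are means of 3. ZNF600, ZNF440, ZNF561 and ZNF211 lie higher in all 9 treated than in the 3 untreated libraries, and ZNF580, ZNF749 and ZNF146 lie lower.

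Further genes passed in some of these comparisons. ZNF324, a KRAB gene, had 3.52, 3.64 and 3.34 FPKM in silenced libraries and 3.28, 3.07 and 3.62 FPKM with lovastatin, against 2.10, 2.45 and 2.01 FPKM in untreated libraries, with no overlap. It rose by 0.50 ± 0.12 (limma adjusted p = 0.00585) in silenced cells and by 0.44 ± 0.12 (limma adjusted p = 0.0148) with lovastatin. ZNF837, a gene of 70.2% GC without the KRAB stretch, had 1.68, 1.65 and 1.61 FPKM with lovastatin against 1.03, 0.790 and 0.522 FPKM in untreated libraries, and rose by 0.58 ± 0.17 (limma adjusted p = 0.0216). In silenced libraries ZNF837 spread from 0.834 to 1.83 FPKM and overlapped the untreated ones.

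Among the falls, ZNF749, a KRAB gene with 13 fingers, had 3.25, 3.44 and 3.24 FPKM in silenced libraries, 3.04, 2.86 and 2.97 FPKM with lovastatin and 3.27, 3.38 and 2.60 FPKM with CPT-11, against 4.26, 3.70 and 4.29 FPKM in untreated libraries. It fell by 0.36 ± 0.09 (limma adjusted p = 0.0101) with lovastatin and by 0.32 ± 0.09 (limma adjusted p = 0.0289) with CPT-11, and in silenced cells its difference was -0.24 ± 0.09 (limma adjusted p = 0.0511). ZNF507, with 9 fingers and no KRAB stretch, had 3.56, 3.55 and 3.71 FPKM in silenced libraries and 3.93, 4.04 and 4.21 FPKM with lovastatin, against 4.81, 5.65 and 5.80 FPKM in untreated libraries, with no overlap. It fell by 0.48 ± 0.11 (limma adjusted p = 0.00508) in silenced cells and by 0.34 ± 0.11 (limma adjusted p = 0.0332) with lovastatin.

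A pair of low KRAB genes also fell. ZNF613 had 0.695, 0.723 and 0.786 FPKM in silenced libraries against 1.25, 1.33 and 1.21 FPKM in untreated libraries, and fell by 0.38 ± 0.07 (limma adjusted p = 0.00123). ZNF765 had 0.889, 0.874 and 1.1 FPKM in silenced libraries and 0.838, 0.785 and 1.02 FPKM with lovastatin, against 1.11, 1.38 and 1.68 FPKM in untreated libraries. It fell by 0.29 ± 0.09 (limma adjusted p = 0.03) in silenced cells and by 0.34 ± 0.09 (limma adjusted p = 0.017) with lovastatin, and its untreated libraries were spread, the lowest lying just above the highest treated one.

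Without a correction for GC content, a smaller share of these genes passed than of all genes. With it, described below, rises in silenced against untreated cells were 23.1%, beside 19.7% of all genes. The 156 genes had a median level of 2.08 FPKM, beside 3.71 FPKM for all genes tested, and the part of level in these shares was not tested. In silenced against untreated cells 13 of the 156 genes rose and 12 fell (8.33% and 7.69%), beside 18.3% and 19.5% of all genes tested. With lovastatin and CPT-11 8 rose and 6 fell (5.13% and 3.85%), beside 14.7% and 14.3% of all genes. With CPT-11 7 rose and 2 fell (4.49% and 1.28%), beside 8.85% and 7.72% of all genes. The median log2 difference of the 156 genes was 0.00 in silenced cells, -0.01 with lovastatin and 0.01 with CPT-11, beside 0.00, 0.00 and -0.01 for all genes. None of the genes that passed differed by 2-fold or more after 1 FPKM was added, an addition that makes changes of low genes look smaller. When libraries were scaled to their total of assigned reads, 18 rose and 6 fell in silenced cells, and 9 rose and 4 fell with lovastatin. The median of all genes moved by up to 0.059 under this scaling. Shares of all genes under it are not given, so these counts are not read as a result about the set. Without CPT-11 replicate 3, CPT-11 against untreated cells gave 18 rises and 10 falls (11.5% and 6.41%, beside 11.6% and 13% of all genes). The other comparisons with untreated cells, which share the estimate of spread, then gave 15 and 20 in silenced cells (beside 22.6% and 23.3%) and 11 and 10 with lovastatin (beside 19.1% and 18.7%).

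**Figure D3:**
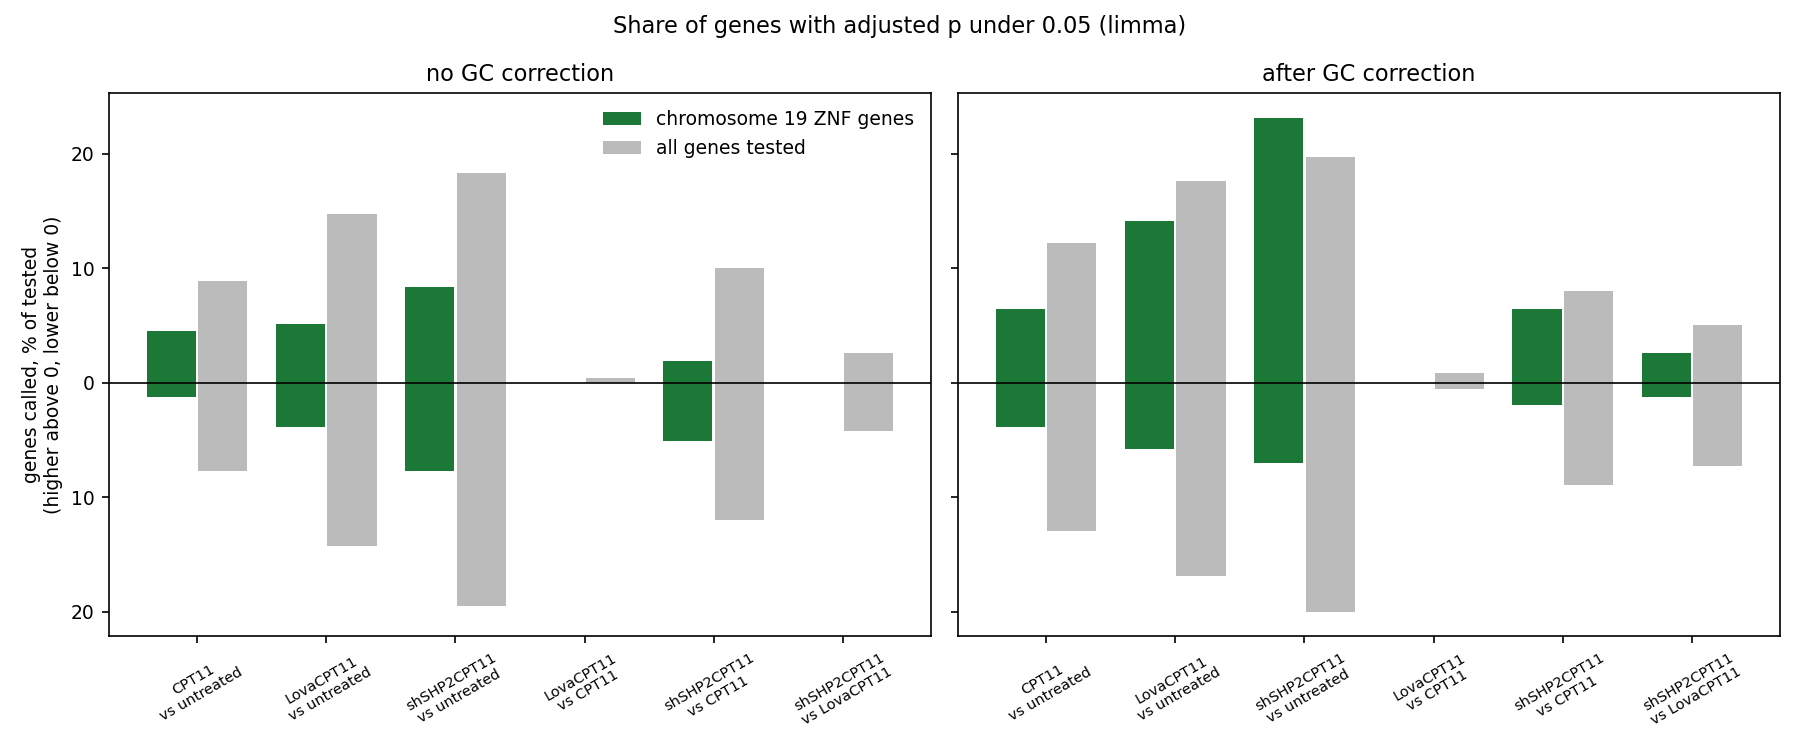
Share of genes with a limma adjusted p under 0.05 (vertical axis, percent of genes tested, higher above 0 and lower below 0) in 6 comparisons (horizontal axis, with the groups named as in the sample titles), for chromosome 19 zinc finger genes (green) and all genes tested (grey), without (left) and with (right) correction for GC content. In silenced against untreated cells the zinc finger genes called higher made up 8.33% without and 23.1% with the correction.

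Libraries differed in how values changed with GC content, and in part this followed the groups. Over tested genes outside the set, the slope of log2 values against exon GC content, relative to the mean of all libraries, was 0.134, 0.117 and 0.104 per 10 points of GC in silenced libraries and 0.076, 0.057 and 0.013 with lovastatin. It was -0.153, -0.178 and 0.082 with CPT-11 and -0.014, -0.094 and -0.143 in untreated libraries. CPT-11 replicate 3 lay near the silenced and lovastatin libraries and not with the other CPT-11 libraries. The silenced and lovastatin slopes did not overlap the untreated ones, so in those comparisons slope and group cannot be told apart. The median difference between silenced and CPT-11 cells was -0.22 for the 2226 genes outside the set with 35 to 40% GC, and 0.43 for the 489 genes with 65 to 70% GC. A correction that took a smooth curve over GC content, fitted on genes outside the set, from each library left 0.00 and 0.02. Between silenced and untreated cells the correction left 0.04 for the 3722 such genes with 40 to 45% GC. It left -0.09 there for the 52 with 70 to 75% GC.

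How far the zinc finger genes followed the slope differed between comparisons, and the correction changed which of them passed. In silenced against CPT-11 cells the 95 tested genes under 45% GC had a median difference of -0.09 and the other 61 had 0.09, and with the correction 0.07 and 0.04. In silenced against untreated cells the 95 genes had a median difference of -0.02, while genes outside the set had -0.21 at 35 to 40% GC and -0.13 at 40 to 45% GC, and with the correction the 95 genes had 0.15. The other 61 had 0.05 without and 0.00 with the correction. In that comparison 36 genes rose and 11 fell with the correction (23.1% and 7.05%, beside 19.7% and 20% of all genes). All 13 uncorrected rises passed again, and 5 of the 12 falls did. With lovastatin against untreated cells 22 rose and 9 fell (14.1% and 5.77%, beside 17.6% and 16.9%), and 7 of the 8 uncorrected rises and 5 of the 6 falls passed again. With CPT-11 against untreated cells 10 rose and 6 fell (6.41% and 3.85%, beside 12.2% and 13%), and all 7 rises and both falls passed again.

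Seen by library, the median of the 156 genes moved with the correction. Relative to the untreated mean it was 0.013, -0.012 and 0.006 in silenced libraries, -0.019, 0.002 and 0.003 with lovastatin and 0.045, 0.045 and -0.062 with CPT-11 before the correction. With it, the median was 0.091, 0.094 and 0.091 in silenced libraries, 0.055, 0.055 and 0.064 with lovastatin and 0.014, 0.017 and 0.001 with CPT-11. The 202 tested ZNF genes of other chromosomes had -0.008, 0.001 and 0.008 in silenced libraries with the correction. Of these 202 genes, 33 rose and 32 fell with it in silenced against untreated cells (16.3% and 15.8%, beside 19.7% and 20% of all genes).

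The zinc finger genes' own GC slope in silenced libraries was 0.101, 0.078 and 0.053 before the correction, smaller than that of other genes, and -0.041, -0.045 and -0.057 with it. In untreated libraries it was 0.070, -0.025 and -0.094 before and 0.078, 0.067 and 0.054 with the correction, so the corrected slopes had opposite signs in the 2 groups. On the log2(FPKM + 1) scale low genes move less. With a pseudocount of 0.1 in place of 1, 32 rose and 13 fell with the correction in silenced against untreated cells (beside 19.1% and 19.4% of all genes), and with limma's voom on the recovered reads 38 rose and 14 fell (beside 20.5% and 20%). On those reads their slope after correction was still -0.064, -0.071 and -0.098 in silenced libraries and 0.121, 0.101 and 0.077 in untreated libraries. How much of the shift comes from the correction was not tested.

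**Figure D4:**
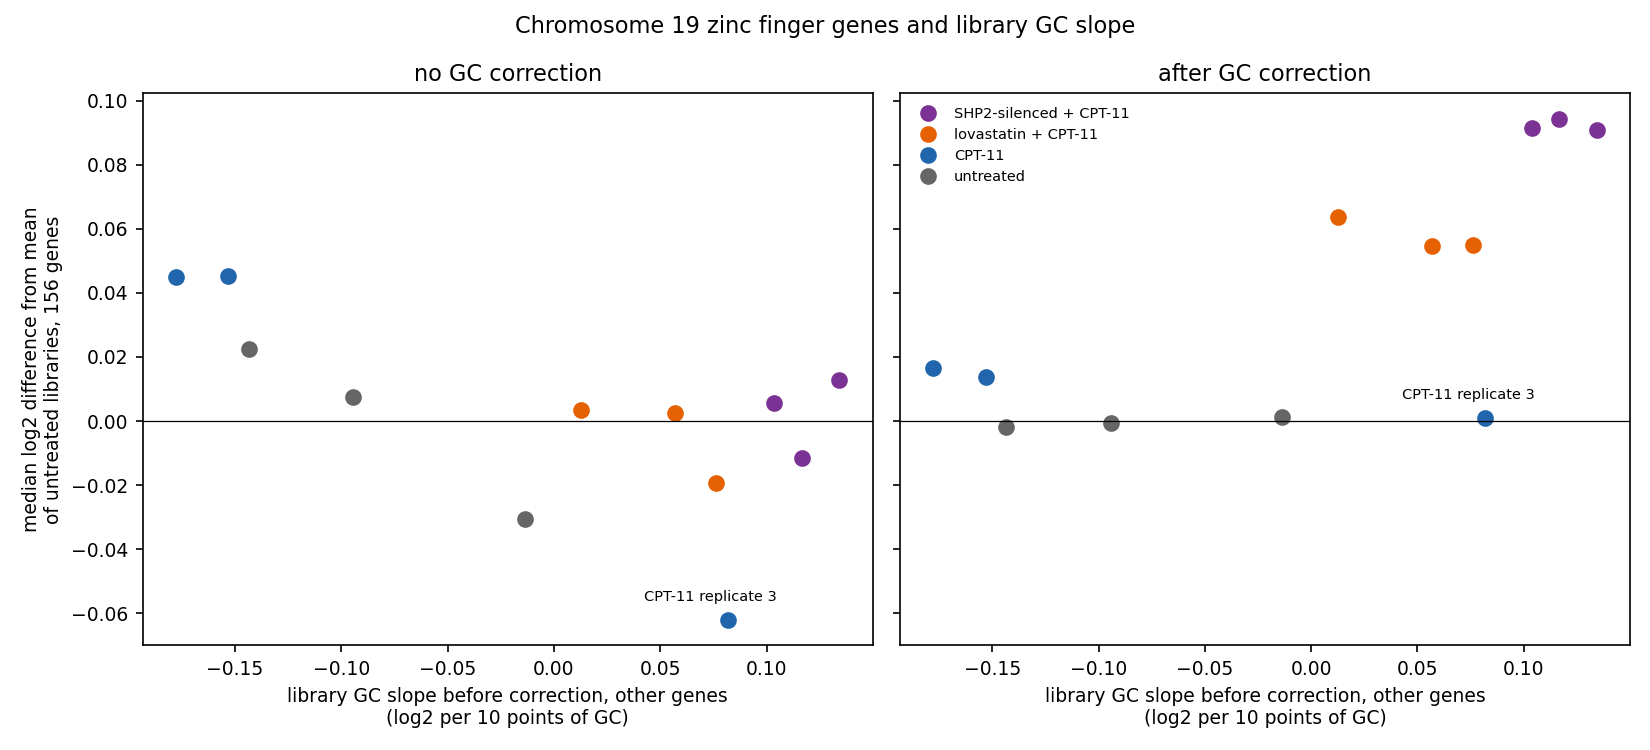
Median log2 difference of the 156 tested chromosome 19 zinc finger genes from the mean of the untreated libraries (vertical axis) against the GC slope of each library over other genes (horizontal axis, log2 per 10 points of GC), without (left) and with (right) correction for GC content. Points are libraries. With the correction the silenced libraries lie at 0.091 to 0.094 and the CPT-11 libraries at 0.001 to 0.017.

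The genes that led the comparisons with untreated cells passed again with the correction. In silenced cells ZNF600 rose by 0.84 ± 0.07 (limma adjusted p = 2.98e-06), ZNF440 by 0.82 ± 0.08 (limma adjusted p = 1.85e-05), ZNF561 by 0.57 ± 0.04 (limma adjusted p = 1.27e-06) and ZNF211 by 0.51 ± 0.10 (limma adjusted p = 0.0016). ZNF580 fell by 0.88 ± 0.06 (limma adjusted p = 9.77e-07) and ZNF146 by 0.29 ± 0.04 (limma adjusted p = 0.000227), while ZNF581 rose by 0.38 ± 0.07 (limma adjusted p = 0.0011) and ZNF324 by 0.31 ± 0.09 (limma adjusted p = 0.0153). ZNF121, which had not passed, rose by 0.28 ± 0.05 (limma adjusted p = 0.00154). With lovastatin the rise of ZNF837 was lost, at 0.33 ± 0.14 (limma adjusted p = 0.0852).

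A pair of genes named after their values were seen show what the correction does. ZNF506, a KRAB gene of 40.3% GC, had 0.745, 0.733 and 0.912 FPKM in silenced libraries against 0.304, 0.420 and 0.459 FPKM in untreated libraries, with no overlap. It rose by 0.37 ± 0.07 (limma adjusted p = 0.0028) without and 0.57 ± 0.07 (limma adjusted p = 0.000113) with the correction. ZNF628, without the KRAB stretch and with 70.4% GC, had 2.53, 2.17 and 1.93 FPKM in silenced libraries against 2.78, 2.69 and 2.20 FPKM in untreated libraries, which overlap. Its difference was -0.15 ± 0.14 (limma adjusted p = 0.445) without the correction, and with it ZNF628 fell by 0.57 ± 0.09 (limma adjusted p = 0.000303). The 52 genes outside the set with 70 to 75% GC kept a median of -0.09 in this comparison with the correction.

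Genes with and without the KRAB stretch differed in GC content, and their counts are given beside the shares of all genes. The 125 tested genes with the stretch had a median GC content of 43.3% and the 31 without it 60.5%. The ranges overlapped, with ZNF324 at 58.8% among the former and ZNF146 at 41.7% among the latter. Whether the counts below go with the stretch or with GC content was not tested. In silenced against untreated cells 12 of the 125 rose and 8 fell without the correction (beside 18.3% and 19.5% of all genes), and 34 rose and 1 fell with it (beside 19.7% and 20%). Of the 31 genes without the stretch 1 rose and 4 fell without the correction, and 2 rose and 10 fell with it. The median difference there was 0.00 with the stretch and 0.06 without it before the correction, and 0.14 and -0.09 with it. The corrected counts with lovastatin against untreated cells were 20 rises and 2 falls with the stretch, and 2 and 7 without it (beside 17.6% and 16.9% of all genes). With CPT-11 against untreated cells they were 10 and 1 with the stretch, and 0 and 5 without it (beside 12.2% and 13%).

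Position groups differed too, beside their GC content. The 15 tested genes beside the centromere on the short arm, with a median GC content of 38.3%, had a median difference of -0.19 in silenced against untreated cells without the correction and 0.04 with it. The 44 tested genes at the end of the long arm, at 48.6% GC, had 0.05 and 0.04. ZNF211, ZNF580, ZNF581, ZNF749, ZNF324 and ZNF837 lie there. The 13 tested genes around ZNF440, at 43.2% GC, had 0.07 and 0.23, and the 26 tested genes of the group that holds ZNF600 had -0.01 and 0.14. These medians describe genes that share libraries and were not tested.

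Silenced cells with CPT-11 were next compared with cells given CPT-11 alone. A control hairpin with CPT-11 was not analysed, so lower SHP2 and other effects of the hairpin cannot be told apart here. The genes that rose had a high GC content. ZNF787, with 7 fingers and no KRAB stretch, had 10.003, 9.43 and 10.6 FPKM in silenced libraries against 4.84, 4.29 and 8.89 FPKM with CPT-11, and rose by 0.71 ± 0.21 (limma adjusted p = 0.037). ZNF581, whose values stand above, rose by 0.50 ± 0.13 (limma adjusted p = 0.0227). ZNF444, a SCAN domain gene, had 4.75, 4.25 and 4.2 FPKM in silenced libraries against 2.93, 2.38 and 3.96 FPKM with CPT-11, and rose by 0.42 ± 0.14 (limma adjusted p = 0.0499). In all 3 genes, at 58.7 to 65.3% GC, CPT-11 replicate 3 was the highest CPT-11 library and lay nearest to the silenced ones.

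Of the 8 genes that fell in that comparison, 7 lay under 45% GC, as did 95 of the 156 tested genes. ZNF708, a KRAB gene, had 1.90, 2.18 and 2.42 FPKM in silenced libraries against 3.03, 3.58 and 2.74 FPKM with CPT-11, and fell by 0.38 ± 0.11 (limma adjusted p = 0.0342). ZNF714, with 12 fingers, had 4.26, 4.54 and 4.10 FPKM in silenced libraries against 6.55, 6.23 and 4.8 FPKM with CPT-11, and fell by 0.36 ± 0.11 (limma adjusted p = 0.0348). CPT-11 replicate 3 was the lowest CPT-11 library in both genes. ZNF791, a KRAB gene, had 4.78, 4.75 and 4.72 FPKM in silenced libraries against 7.03, 7.18 and 4.91 FPKM with CPT-11, and fell by 0.34 ± 0.11 (limma adjusted p = 0.0439). ZNF613 had 0.695, 0.723 and 0.786 FPKM in silenced libraries against 1.3, 1.25 and 1.13 FPKM with CPT-11, and fell by 0.36 ± 0.07 (limma adjusted p = 0.00729). ZNF146 fell by 0.26 ± 0.08 (limma adjusted p = 0.0443), and its groups overlapped through CPT-11 replicate 3. When each of the 12 libraries was left out in turn, ZNF613 passed every time, and the others missed the threshold in 11 (ZNF444), 10 (ZNF791), 9 (ZNF146), 7 (ZNF787), 6 (ZNF714), 5 (ZNF581) and 4 (ZNF708) of the 12 fits, none of them the fit without CPT-11 replicate 3 (limma adjusted p up to 0.19).

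In all, 3 genes rose and 8 fell in silenced against CPT-11 cells (1.92% and 5.13%, beside 10% and 12% of all genes). Scaling to the total of assigned reads gave 6 rises and 4 falls, for which no share of all genes is given. With GC correction 10 rose and 3 fell (6.41% and 1.92%, beside 8.04% and 8.96%), and of the uncorrected calls 0 of the 3 rises and 1 of the 8 falls passed again. That fall was ZNF613, by 0.23 ± 0.06 (limma adjusted p = 0.0346). ZNF787 differed by 0.35 ± 0.11 (limma adjusted p = 0.0562) with the correction and ZNF708 by -0.16 ± 0.09 (limma adjusted p = 0.235). Without CPT-11 replicate 3 there were 13 rises and 30 falls (8.33% and 19.2%, beside 21.7% and 22%), and 19 and 8 with GC correction as well (12.2% and 5.13%, beside 15.7% and 14.1%). With both changes the difference of ZNF787 was 0.47 (limma adjusted p = 0.00687), that of ZNF791 -0.28 (limma adjusted p = 0.00354) and that of ZNF613 -0.20 (limma adjusted p = 0.0561).

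**Figure D5:**
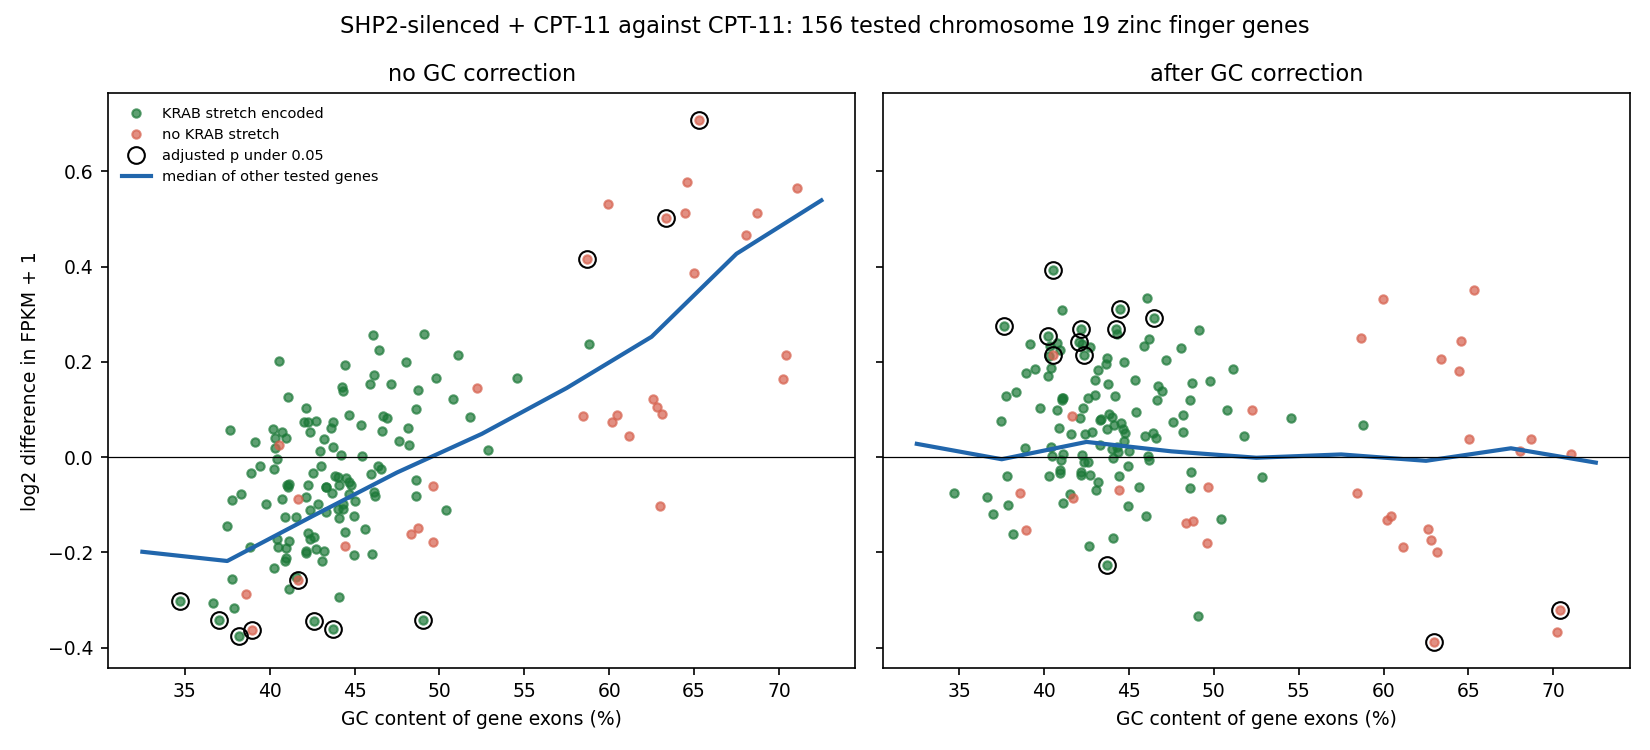
Log2 difference between silenced cells with CPT-11 and cells with CPT-11 alone (vertical axis, FPKM + 1) against exon GC content (horizontal axis, percent) for the 156 tested chromosome 19 zinc finger genes, without (left) and with (right) GC correction. Points are genes with (green) or without (red) the KRAB stretch, rings mark a limma adjusted p under 0.05, and the line joins the medians of other tested genes in bins of 5 points. Without the correction the 3 called rises lie at 58.7 to 65.3% GC.

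To see what lovastatin added to the drug, pretreated cells were set against cells with CPT-11 alone. By limma 0 of the 156 genes rose and 0 fell, beside 0.393% and 0.072% of all genes, and 6 were higher and 2 lower at an unadjusted p under 0.05. With GC correction limma gave 0 and 0 as well (beside 0.855% and 0.602% of all genes), and so did voom on the recovered reads without (beside 0.56% and 0.222%) and with the correction (beside 1.12% and 0.894%). The median difference was -0.03 without and 0.04 with the correction. Without CPT-11 replicate 3, 11 rose and 15 fell (7.05% and 9.62%, beside 16% and 14.4%), and with GC correction as well 4 and 1 (2.56% and 0.641%, beside 9.14% and 6.38%). Without that library ZNF581 passed, at 0.50 (limma adjusted p = 0.00839), as did ZNF146, at -0.22 (limma adjusted p = 0.0152), and with GC correction as well they were 0.17 (limma adjusted p = 0.15) and -0.03 (limma adjusted p = 0.629). ZNF428 rose in both of these fits, by 1.14 (limma adjusted p = 0.000182) without that library and by 0.92 (limma adjusted p = 0.000178) with GC correction as well. In silenced against CPT-11 cells, which share the CPT-11 libraries, ZNF428 rose by 0.98 (limma adjusted p = 8.46e-05) and 0.70 (limma adjusted p = 0.000314) in the same fits.

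Silenced cells were also set against lovastatin-pretreated cells, both with CPT-11. By limma 0 of the 156 genes rose and 0 fell, beside 2.58% and 4.26% of all genes, and 9 were higher and 8 lower at an unadjusted p under 0.05. By voom on the recovered reads 0 rose and 1 fell (beside 2.93% and 4.88%). With GC correction 4 rose and 2 fell (2.56% and 1.28%, beside 4.99% and 7.26%), and these genes were taken after their values were seen. ZNF350, known as ZBRK1, a KRAB protein that binds BRCA1, had 0.849, 0.718 and 0.995 FPKM in silenced libraries against 0.634, 0.466 and 0.445 FPKM with lovastatin, and rose by 0.33 ± 0.08 (limma adjusted p = 0.0219). ZNF850, a KRAB gene with 29 fingers, had 0.882, 0.679 and 0.725 FPKM in silenced libraries against 0.562, 0.475 and 0.555 FPKM with lovastatin, and rose by 0.26 ± 0.06 (limma adjusted p = 0.0196). ZNF506 and ZNF417 rose by 0.26 ± 0.07 (limma adjusted p = 0.0405) and 0.26 ± 0.08 (limma adjusted p = 0.0489). ZNF580 and ZNF628 fell by 0.22 ± 0.06 (limma adjusted p = 0.0342) and 0.30 ± 0.09 (limma adjusted p = 0.0388), also with the correction. By voom with GC correction the 4 rises and 1 of the 2 falls passed again. When a replicate block was added to the GC correction in limma, 2 genes rose and 0 fell.

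The 32 genes of a list for the KRAB co-repressor pathway were all tested, and more of them fell than rose against untreated cells. The list was chosen with earlier results of these data known, so its counts are a description only. In silenced cells 1 rose and 15 fell (beside 18.3% and 19.5% of all genes), with lovastatin 1 and 14 (beside 14.7% and 14.3%) and with CPT-11 0 and 10 (beside 8.85% and 7.72%). Without CPT-11 replicate 3 the CPT-11 counts were 3 and 11 (beside 11.6% and 13%). The medians were -0.18 in silenced cells, -0.19 with lovastatin and -0.11 with CPT-11. With GC correction 1 rose and 17 fell in silenced cells (beside 19.7% and 20%), 1 and 18 with lovastatin (beside 17.6% and 16.9%) and 0 and 14 with CPT-11 (beside 12.2% and 13%). TRIM28 itself had 181, 184 and 192 FPKM in silenced libraries, 173, 172 and 153 FPKM with lovastatin and 144, 152 and 191 FPKM with CPT-11, against 219, 204 and 196 FPKM in untreated libraries. It fell by 0.32 ± 0.10 (limma adjusted p = 0.0298) with lovastatin and by 0.35 ± 0.10 (limma adjusted p = 0.0295) with CPT-11. In silenced cells its difference was -0.15 ± 0.10 (limma adjusted p = 0.243), and with GC correction it fell by 0.40 ± 0.05 (limma adjusted p = 8.38e-05). Against CPT-11 alone the TRIM28 difference in silenced cells was 0.20 ± 0.10 (limma adjusted p = 0.147), and without CPT-11 replicate 3, the highest CPT-11 library, it was 0.32 (limma adjusted p = 0.00322) and passed. With that library left out and GC correction it was -0.04 (limma adjusted p = 0.605).

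Genes of the chromatin machinery that TRIM28 recruits were among those that fell. SETDB1, the histone H3 lysine methyltransferase, had 6.06, 5.66 and 5.37 FPKM in silenced libraries, 5.90, 6.22 and 6.35 FPKM with lovastatin and 6.93, 6.24 and 5.95 FPKM with CPT-11, against 7.15, 7.44 and 7.66 FPKM in untreated libraries. It fell by 0.33 ± 0.07 (limma adjusted p = 0.00332) in silenced cells and by 0.23 ± 0.07 (limma adjusted p = 0.0255) with lovastatin, and with CPT-11 its difference was -0.19 ± 0.07 (limma adjusted p = 0.0809). CBX5, an HP1 protein that binds the mark SETDB1 sets, had 11.5, 11.5 and 12.4 FPKM in silenced libraries against 18.5, 19.6 and 20.8 FPKM in untreated libraries, and fell by 0.68 ± 0.07 (limma adjusted p = 3.38e-05). That CBX5 difference ran from -0.73 to -0.45 over the 24 settings described below (limma adjusted p up to 0.000353). CBX1, also an HP1 protein, fell by 0.40 ± 0.06 (limma adjusted p = 0.00124) with CPT-11.

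UHRF1, which brings the maintenance DNA methyltransferase DNMT1 to newly copied DNA, had 29.3, 27.8 and 28.9 FPKM with lovastatin against 49.9, 48.2 and 43.1 FPKM in untreated libraries, and fell by 0.69 ± 0.07 (limma adjusted p = 4.45e-05). With CPT-11 it fell by 0.51 ± 0.07 (limma adjusted p = 0.000652). DNMT1 fell by 0.40 ± 0.05 (limma adjusted p = 0.00017) in silenced cells, by 0.53 ± 0.05 (limma adjusted p = 2.74e-05) with lovastatin and by 0.34 ± 0.05 (limma adjusted p = 0.0011) with CPT-11. The histone demethylase gene KDM1A fell by 0.44 ± 0.05 (limma adjusted p = 0.000168) with lovastatin, and the deacetylase gene HDAC2 by 0.49 ± 0.07 (limma adjusted p = 0.00022) in silenced cells. The HDAC2 difference, for a gene of 36.8% GC, ran from -0.53 to -0.17 over the 24 settings described below (limma adjusted p up to 0.0261).

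ATM, the kinase that phosphorylates TRIM28, had 3.59, 3.73 and 3.86 FPKM in silenced libraries, 3.23, 3.70 and 3.86 FPKM with lovastatin, 4.25, 4.04 and 3.79 FPKM with CPT-11 and 3.82, 4.30 and 4.25 FPKM in untreated libraries, and none of its 6 differences passed by limma without GC correction. CHEK2, a checkpoint kinase gene, was the list member that rose in silenced against untreated cells, with 9.64, 9.52 and 9.39 FPKM against 8.69, 7.51 and 8.55 FPKM and a rise of 0.19 ± 0.06 (limma adjusted p = 0.0365). Against CPT-11 alone 0 list members rose and 6 fell in silenced cells (beside 10% and 12% of all genes), among them KIAA1551, a retroelement silencing factor, by 0.77 ± 0.15 (limma adjusted p = 0.00923), CBX5 by 0.38 ± 0.07 (limma adjusted p = 0.00657) and CBX3 by 0.39 ± 0.09 (limma adjusted p = 0.0134). Over the 24 settings described below, the CBX5 difference in this comparison ran from -0.45 to -0.15 (limma adjusted p up to 0.06). That of CBX3 ran from -0.50 to -0.26 (limma adjusted p up to 0.0788) and that of KIAA1551 from -0.99 to -0.52 (limma adjusted p up to 0.062). Without CPT-11 replicate 3, 6 list members rose and 14 fell there (beside 21.7% and 22%). Lovastatin against CPT-11 gave 0 and 0 on this list by limma (beside 0.393% and 0.072%), and 3 and 14 without that library (beside 16% and 14.4%). In silenced against lovastatin cells 2 rose and 0 fell (beside 2.58% and 4.26%), and the rises were UHRF1 by 0.34 ± 0.07 (limma adjusted p = 0.0165) and CHEK2 by 0.25 ± 0.06 (limma adjusted p = 0.039).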

How the data were processed

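The deposited table holds 1 FPKM value per feature and library, for 12 libraries; per the labels' protocols, RNA came from Trizol extracts and libraries from the NEBNext Ultra kit. Tools named without a role in the submitters' processing notes are featureCounts 1.5.0-p3, DESeq2 1.16.1, HISAT2 2.0.5 and StringTie 1.3.3b, with the build hg19, whereas the identifiers and coordinates in the table match GENCODE 29 on GRCh38 for all 58735 features with such an identifier, so coordinates here are GRCh38. How the authors' counting treated strand, multimapping and overlap is not given in the sources used. FPKM times gene length came out as whole reads for 100% of 343260 nonzero values (tolerance 0.01 read), which gave the reads and depths, and counting error is larger for low genes.

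limma 3.58.1 (R 4.3.3, trend) was run on log2(FPKM + 1) with all 12 libraries and 4 groups, after the filter on reads given above, for 18047 genes, and p-values were adjusted by Benjamini-Hochberg. GC content was that of each gene's exon union in GENCODE 29, available for 17778 tested genes. GC correction removed from each library a natural spline (4 degrees of freedom) of the deviation from the mean library, fitted on tested genes outside the set. Named genes are, per comparison, the 4 largest rises and 4 largest falls among those that passed with no overlap between groups, the 5 most abundant members, TRIM28, SETDB1, ATM and CHEK2, up to 3 other pathway genes with the smallest p, and PTPN11; others are said to be chosen after their values were seen. Alternatives were another pseudocount, no filter, voom on reads, fits of the 2 groups alone, scaling to totals, GC and length correction, a replicate block and each library left out, and, chosen after seeing the data, GC correction with a pseudocount of 0.1 and with voom. Members and lists were chosen with earlier results of these data known. The code was tested on simulated data. No 2 libraries of a group agreed within sampling noise. Figures were drawn with matplotlib 3.10.9.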

Additional observations from a re-analysis of the deposited data

How the results depend on the processing

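Counts of zinc finger genes are given as rises and falls for silenced, lovastatin and CPT-11 cells against untreated cells, then lovastatin against CPT-11, silenced against CPT-11 and silenced against lovastatin cells. They were 13 and 12, 8 and 6, 7 and 2, 0 and 0, 3 and 8, 0 and 0 as reported. With GC correction they were 36 and 11, 22 and 9, 10 and 6, 0 and 0, 10 and 3, 4 and 2. With GC and length correction they were 41 and 12, 22 and 9, 11 and 6, 0 and 0, 16 and 3, 6 and 1. With GC correction and without CPT-11 replicate 3 they were 40 and 13, 27 and 10, 15 and 6, 4 and 1, 19 and 8, 4 and 3. With GC correction and a pseudocount of 0.1 they were 32 and 13, 25 and 8, 12 and 6, 0 and 0, 5 and 5, 3 and 1. With GC correction and the replicate block they were 34 and 10, 20 and 7, 10 and 5, 0 and 0, 7 and 1, 2 and 0. With GC correction and voom they were 38 and 14, 29 and 10, 15 and 7, 0 and 0, 9 and 6, 7 and 2. With voom they were 13 and 18, 9 and 7, 9 and 3, 0 and 0, 6 and 10, 0 and 1. Without the filter they were 8 and 6, 7 and 3, 6 and 1, 0 and 0, 0 and 1, 0 and 0. In fits of the 2 groups alone they were 17 and 14, 9 and 7, 5 and 1, 0 and 0, 0 and 0, 0 and 2. With the replicate block they were 13 and 9, 8 and 4, 7 and 1, 0 and 0, 1 and 3, 0 and 0. With scaling to totals they were 18 and 6, 9 and 4, 10 and 2, 0 and 0, 6 and 4, 1 and 0. With a pseudocount of 0.1 none of the 12 counts moved by over 1.5 times. No share of all genes is given for GC and length correction, no filter, 2 groups alone, scaling to totals or the replicate block. Wherever a share is not given above, a count shows only how calls moved with the setting. Leaving out each library in turn gave, for rises, 8 to 15, 6 to 11, 6 to 18, 0 to 11, 0 to 13, 0 to 2, and for falls, 6 to 20, 3 to 10, 2 to 10, 0 to 15, 1 to 30, 0 to 2, with the highest counts in the fit without CPT-11 replicate 3. In 18 same-numbered pairs of libraries, correlations ran from -0.39 to 0.176, with 2 over 0.1. In 36 differently numbered pairs they ran from -0.327 to 0.446, with 6 over 0.1. These values show no pairing by replicate number and cannot exclude it, and the block counts rest on numbers only. Of 54 named values that passed, 15 no longer passed without the filter, 14 in fits of the 2 groups alone, 13 with the block, 8 with GC correction and 0 with voom, all in the same direction. With 1 library left out, 19 of the 54 missed the threshold at least once, but 0 of them without CPT-11 replicate 3. Beside the silenced against CPT-11 values given above these were, with the number of 12 fits and the highest limma adjusted p, CHEK2 in 7 (up to 0.152) in silenced against untreated cells, ZNF507 in 5 (up to 0.112), ZNF837 in 4 (up to 0.088), TRIM28 in 4 (up to 0.106), SETDB1 in 4 (up to 0.0876), ZNF765 in 3 (up to 0.0674), ZNF146 in 1 (up to 0.0533) with lovastatin against untreated cells, TRIM28 in 4 (up to 0.104), ZNF749 in 2 (up to 0.0933) with CPT-11 against untreated cells, CBX3 in 4 (up to 0.0627) in silenced against CPT-11 cells, and CHEK2 in 8 (up to 0.125), UHRF1 in 5 (up to 0.0697) in silenced against lovastatin cells. ZNF600, ZNF440 and ZNF580 against untreated cells passed under all 24 settings. Settings added after seeing the data changed the sign of some differences. For ZNF121 with lovastatin against untreated cells, GC correction with a pseudocount of 0.1 gave 0.16 (limma adjusted p = 0.0335). GC correction with voom gave 0.18 there (limma adjusted p = 0.0279). The uncorrected ZNF121 difference was -0.03 and had not passed. For TRIM28 in silenced against CPT-11 cells, voom with GC correction gave -0.17 (limma adjusted p = 0.0485). The uncorrected TRIM28 difference of 0.20 had not passed, and it was 0.32 (limma adjusted p = 0.00322) without CPT-11 replicate 3. The cause of these shifts was not tested. Scaling to totals moved the median of all genes by up to 0.059. Depth limits the 84 genes with too few reads, for which no difference was detectable, and changes of genes under 1 FPKM are understated by the pseudocount.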
